A study of Mus musculus with 4 samples.

Results

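Fatty acid oxidation genes, 32 of the 25636 genes listed in the count matrices, were followed through the kidney tubule of lupus-prone and control mice. The rule that lists them goes by pathway, and the list was drawn up with earlier results of these data known. It holds 2 regulators, 4 genes of uptake and activation, 3 of the carnitine shuttle, 5 acyl-CoA dehydrogenases, 4 genes of the later mitochondrial steps, 3 for unsaturated fatty acids, 3 for electron transfer, 5 of the peroxisome, 2 thioesterases and 1 gene of the switch between fuels. Each matched 1 row of every matrix.

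Kidney nuclei of female mice were profiled by droplet-based 3' RNA sequencing, with 1 library for each of 4 groups: MRL/lpr at 6 weeks of age, C57BL/6 at 6 weeks, MRL/lpr at 10 weeks and C57BL/6 at 10 weeks. Runs of 4 values below follow this order. The design text names the renal cortex, and the series title names macrophages and mesangial cells in lupus nephritis. MRL/lpr mice carry the lpr mutation of the death receptor gene Fas on the MRL background and develop lupus-like disease, and C57BL/6 mice are not of that background. There was no group of MRL background with normal Fas, so strain background, Fas mutation and disease cannot be told apart. How many mice went into a library is not given in the sources used here.

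Fatty acids are the main fuel of the proximal tubule, which reabsorbs most of the filtrate and has little capacity for glycolysis. They enter the cell through carriers, are activated to acyl-CoA, cross into the mitochondrion on carnitine and are shortened there cycle by cycle by a dehydrogenase, a hydratase, a second dehydrogenase and a thiolase. Very long and branched chains are shortened in the peroxisome first. The nuclear receptor PPAR alpha, encoded by Ppara, and the coactivator encoded by Ppargc1a drive transcription of many of these genes. The proximal tubule runs from the early convoluted segment S1, through S2, to the straight segment S3.

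The libraries kept 8663, 9101, 9027 and 8808 nuclei with medians of 692, 560, 626 and 568 unique molecules (UMIs), which is shallow. Of 38318 distinct barcodes, 748 occurred in 2 or more libraries, and each pair of libraries shared between 112 and 143. Nuclei were classed by raw UMIs of marker panels: 18938 were proximal tubule, 2066 thick ascending limb, 5193 distal convoluted and connecting tubule, 936 collecting duct principal, 1250 intercalated, 579 podocyte and 2346 endothelium, and 4018 were left unassigned. Within the proximal tubule, 8135 nuclei with Slc5a2, the early glucose transporter, and no UMI of Slc5a10, Slc7a13 or Slc22a7 were called S1-like, and 1072 with the reverse were called S2/S3-like. The other 9731 had neither or both and were called unresolved. S1-like nuclei made up 40, 52.7, 38.7 and 43.3% of the proximal tubule and S2/S3-like nuclei 3.66, 4.28, 6.89 and 8.01%. Of 10 segment markers not used in the gate, all 10 differed between the classes in the direction of their segment (edgeR quasi-likelihood test). Slc5a12, of the early tubule, was lower in S2/S3-like nuclei by a log2 difference of -3.02 and Slc6a18, of the late tubule, higher by 3.11. The S2/S3 gate rested mainly on Slc5a10, since Slc7a13, the usual S3 marker, had 17, 1, 1 and 0 UMIs in S2/S3-like nuclei, so S3 as such was hardly sampled.

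The best known binding element of PPAR alpha is a direct repeat, AGGTCA followed after any 1 base by a further AGGTCA. RefSeq promoters (GRCm38.p6, 250 bases before to 50 after the start) were at hand for 29 of the 32 genes, with 31 starts, and both strands were searched. With up to 2 mismatches the motif was found in 4 of the 31 (12.9%), against 3.86% of all 32851 promoters. With up to 1 mismatch it was found in 1 (3.23%), against 0.554%. Those with 2 or fewer were Fabp1, Cd36, Acox2 and Etfa. A single AGGTCA, which also lies within the repeat, occurred in 19.4% of the member promoters and 16.3% of all. Fabp1, Cd36 and Acox2 are shown, picked among the genes with a match. Pdk4, whose segment and strain differences below are also wide, had 4 mismatches at best. The stretches are given 5' to 3' on the gene's strand, with the match in capitals.
Fabp1, 1 mismatch, chr6:71199729-71199828, + strand: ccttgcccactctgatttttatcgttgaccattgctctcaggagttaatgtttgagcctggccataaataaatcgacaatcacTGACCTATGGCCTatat
Cd36, 2 mismatches, chr5:17835947-17836046, - strand: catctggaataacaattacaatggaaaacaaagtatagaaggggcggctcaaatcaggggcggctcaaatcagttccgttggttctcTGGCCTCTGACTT
Acox2, 2 mismatches, chr14:8258809-8258838, - strand: gctgtcccAGGACAGAGGTGAgtcaagagt
The Fabp1 match lay 67 to 55 bases and the Cd36 match 63 to 51 bases before the start, and the Acox2 match lay 9 to 21 bases after it. Cd36 and Acox2 have other annotated starts upstream, and a match of letters is not evidence of binding.

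Summed over the 32 genes, the level was highest in the proximal tubule and within it in S2/S3-like nuclei. In CPM, a gene's UMIs scaled to the total UMIs of its class and library, the sum was 6785, 7611, 6108 and 8146 in S2/S3-like nuclei and 4279, 5262, 4259 and 4824 in S1-like nuclei, so the 2 segments did not overlap. Unresolved nuclei lay between the other 2 in every library, at 5471, 7341, 5276 and 7255. The thick ascending limb held 2973, 3188, 3142 and 3362 and the distal convoluted and connecting tubule 3092, 3650, 2984 and 3857. Principal and intercalated nuclei held between 1889 and 3155. Podocytes held 1060, 1248, 900.3 and 1192, and endothelium 1086, 1374, 1079 and 1315. Genes with many UMIs weigh most in these sums. Slc27a2 alone had a mean of 888 CPM in S1-like and 1988 CPM in S2/S3-like nuclei. Ppargc1a, a regulator, had a mean of 1302 CPM in the distal convoluted and connecting tubule. The 5 proximal tubule panel genes summed to between 11237 and 15059 CPM in proximal tubule nuclei and still to between 623 and 879 in the thick ascending limb. Whether free RNA, doublets or expression gave these UMIs was not tested, so a low level outside the proximal tubule is not evidence of expression there.

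**Figure D1:**
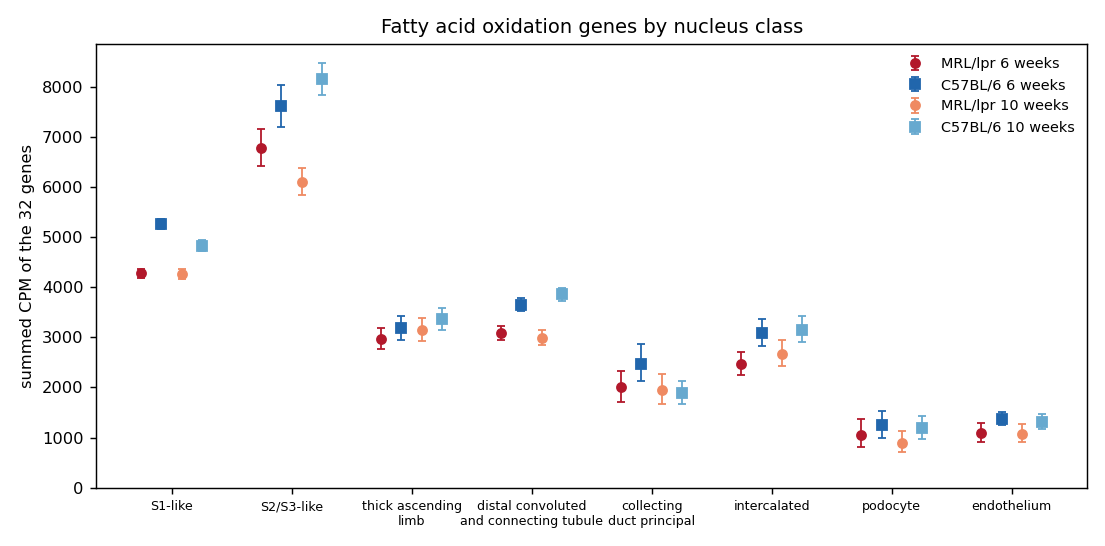
Summed CPM of the 32 genes (y axis, from 0) in each class of nuclei (x axis), with 1 point per library and 95% Poisson intervals that cover counting error only. S2/S3-like nuclei lie between 6108 and 8146 and S1-like nuclei between 4259 and 5262, and podocytes and endothelium lie lowest.

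S2/S3-like nuclei carried more RNA of uptake, medium-chain and peroxisomal genes than S1-like nuclei of the same library, while the coactivator Ppargc1a was lower. Of the 32 genes, 31 had enough UMIs to be tested (Fabp1 did not), and 15 were higher, 2 lower and 14 did not pass (edgeR quasi-likelihood test, library as a block, adjusted p below 0.05 over 10804 genes). Of all genes tested 7.6% were higher and 6.94% lower. The median log2 difference of the members was 0.61, against -0.02 for all genes. The 4 libraries are of 4 different groups and served as the replicates. The spread behind the p-values was estimated with information shared over all genes. A small p-value therefore does not say that a gene's segment difference was alike in the 4 libraries.

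All 3 tested genes of uptake and activation were higher. Cd36, the scavenger receptor that takes up long-chain fatty acids, had 4.48, 3.24, 3.09 and 3.33 CPM in S1-like nuclei and 139, 69.4, 72.5 and 99.7 CPM in S2/S3-like nuclei. The 2 segments were far apart in every library, and the log2 difference was 4.69 (SE 0.32, edgeR adjusted p = 2.88e-31). Slc27a2, which carries and activates very long-chain fatty acids, had 780, 988, 885 and 902 CPM against 1936, 2098, 1990 and 1929, a log2 difference of 1.15 (SE 0.09, edgeR adjusted p = 2.45e-25). The levels of Slc27a2 within S2/S3-like nuclei were nearly alike in the 4 libraries. Acsl1, which activates long-chain fatty acids, was higher by 0.63 (SE 0.11, edgeR adjusted p = 5.56e-07), with 389, 319, 196 and 484 CPM in S1-like and 716, 509, 232 and 779 CPM in S2/S3-like nuclei.

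In the peroxisome 4 of 5 genes were higher. Acaa1b, a thiolase, had 202, 296, 224 and 359 CPM in S1-like nuclei and 525, 832, 625 and 1128 in S2/S3-like nuclei, a log2 difference of 1.5 (SE 0.10, edgeR adjusted p = 7.22e-31). Its paralog Acaa1a did not pass, at -0.38 (SE 0.22, edgeR adjusted p = 0.276). The 2 are near-identical copies, and reads shared between them may have been dropped or split. Ehhadh, the bifunctional enzyme of the peroxisomal cycle, was higher by 1.36 (SE 0.13, edgeR adjusted p = 1.02e-19), and Pex11a, which promotes division of peroxisomes, by 0.70 (SE 0.25, edgeR adjusted p = 0.0421). Acox2, which oxidizes branched chains and bile acid intermediates, was higher by 2.08 (SE 0.19, edgeR adjusted p = 1.77e-20), with 9.95, 50.2, 14.2 and 81.8 CPM in S1-like nuclei and 113, 156, 154 and 196 in S2/S3-like nuclei. The C57BL/6 libraries were above the MRL/lpr libraries of the same age in both segments, and the ratio between them was wider in S1-like nuclei.

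In the dehydrogenase, shuttle, unsaturated fatty acid and electron transfer groups some members were higher and others did not pass. Acadm, the medium-chain dehydrogenase, was higher by 1.76 (SE 0.13, edgeR adjusted p = 9.01e-28), and of the other 4 dehydrogenases only Acadl passed, at 0.71 (SE 0.22, edgeR adjusted p = 0.0119). Acadvl, Acads and Acad11 had differences of 0.51, 0.43 and 0.27 that did not pass. Of the shuttle, Cpt2, which releases fatty acids from carnitine inside the mitochondrion, was higher by 0.85 (SE 0.21, edgeR adjusted p = 0.00132). Cpt1a, the rate-limiting outer enzyme, and Crat, which handles short chains, did not pass, at -0.10 and 0.37. Eci2 and Eci1, which move double bonds, were higher by 0.99 and 0.52, while Decr1, the dienoyl-CoA reductase, had a difference of 0.63 that did not pass (edgeR adjusted p = 0.0535). Etfb, a subunit of the electron transfer flavoprotein, was higher by 0.61. Its partner Etfa and Etfdh, which hands the electrons to the respiratory chain, had differences of 0.10 and 0.39 that did not pass. None of the 4 later mitochondrial genes was higher: Hadha, Hadhb and Hadh had differences of 0.27, -0.18 and 0.06 that did not pass, and Acaa2, the mitochondrial thiolase, was lower by a log2 difference of -0.61 (SE 0.19, edgeR adjusted p = 0.0133).

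Acot1, a thioesterase that frees fatty acids from acyl-CoA, was higher by 1.88 (SE 0.26, edgeR adjusted p = 5.24e-10). Its paralog Acot2, a near-identical copy whose counts may be split with it, had a difference of 0.67 that did not pass. Pdk4, the kinase that shuts pyruvate out of the mitochondrion when fat is burned, was higher by 2.98 (SE 0.48, edgeR adjusted p = 8.74e-08), but on 4, 6, 6 and 9 UMIs in S1-like and 6, 6, 2 and 18 in S2/S3-like nuclei. Ppara had 779, 1048, 901 and 644 CPM in S1-like and 510, 907, 809 and 770 in S2/S3-like nuclei, and the difference of -0.17 (SE 0.10, edgeR adjusted p = 0.319) did not pass. Ppargc1a was lower in S2/S3-like nuclei in every library, with 524, 673, 718 and 570 CPM against 252, 324, 350 and 415, a log2 difference of -0.89 (SE 0.11, edgeR adjusted p = 1.21e-11).

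**Figure D2:**
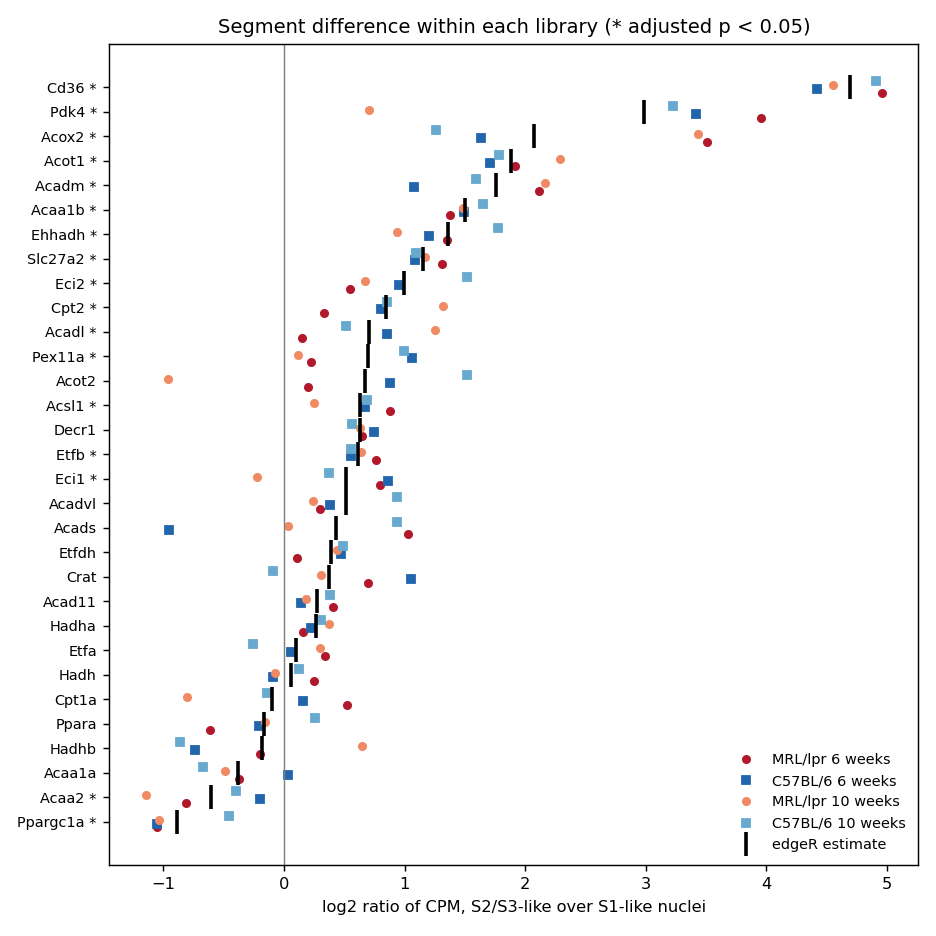
Log2 ratio of CPM in S2/S3-like over S1-like nuclei (x axis) for the 31 tested genes (y axis), with 1 point per library and the edgeR estimate as a black bar. Cd36 lies between 4.42 and 4.96 in the 4 libraries, Ppargc1a lies below 0 in all of them, and asterisks mark the genes with an adjusted p below 0.05.

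The count of higher genes depended on the gate and on the model. It was 7 with at least 2 UMIs of the segment markers, 8 with Slc5a10 left out of the gate and 8 without the library block. The 2 UMI gate left 32, 18, 71 and 65 S2/S3-like nuclei, and the gate without Slc5a10 left 56, 19, 74 and 59. The main gate had 200, 168, 374 and 330, and the part of this loss in the counts was not tested. Cd36, Acadm, Slc27a2, Ehhadh, Acot1 and Ppargc1a kept their call under all 11 alternatives. Of these 11, Eci2, Acaa1b and Acox2 kept their call under 10 and Etfb and Acsl1 under 8. Acadl, Cpt2 and Acaa2 kept theirs under 6, Pdk4 under 5, Pex11a under 4 and Eci1 under 3. Acsl1 lost its call under both alternative gates and without the library block. Pdk4 lost its call when any 1 library was left out, since it then fell under the minimum of 50 UMIs, and also under both alternative gates. Of 94 other genes of the pathway, 83 were tested, 28 were higher and 4 lower. The 5 with the smallest adjusted p were all higher: Bdh1, of ketone body oxidation, by 5.52, the fatty acid hydroxylases Cyp4a14 and Cyp4a10 by 1.90 and 2.01, the medium-chain ligase Acsm1 by 1.14, and Eci3, a paralog of Eci2, by 1.48.

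Against distal segments and other kidney cells most members were higher in the proximal tubule, and Ppargc1a was the member found lower there most often, in 3 of 6 comparisons. Of the 32, 18 were higher and 2 lower than in the thick ascending limb (of all genes tested there, 22.4% were higher and 16.7% lower), and 21 were higher and 4 lower than in the distal convoluted and connecting tubule (26.1 and 23%, or 49.1% in either direction). Against principal nuclei 19 were higher and 0 lower (20.3 and 11%), and against intercalated nuclei 17 and 2 (21.9 and 15.7%, or 37.6% in either direction). Against podocytes the counts were 19 and 1 (20.9 and 10.1%; the 1, Eci2 at -0.81, kept its call under 3 of 10 alternatives) and against endothelium 24 and 1 (28.3 and 20.9%, or 49.2% in either direction). Against principal nuclei DESeq2 also found 0 members lower, and 0 were lower at an unadjusted edgeR p below 0.05.

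In all 6 comparisons 13 members were higher in the proximal tubule: Slc27a2, Ppara, Acaa1b, Ehhadh, Acox2, Acsl1, Etfb, Acad11, Acadm, Hadh, Decr1, Acot1 and Acaa2. The share of all genes higher in all 6 was not taken. Decr1 kept its call under 5 of 10 alternatives against principal nuclei and under 4 of 10 against podocytes. Hadh kept its call under 8 of 10 against the distal convoluted and connecting tubule. Against the thick ascending limb Slc27a2 was higher by 3.60 (SE 0.17, edgeR adjusted p = 4.30e-16), Ppara by 3.43 (SE 0.19, adjusted p = 1.12e-14), Acox2 by 4.70, Acaa1b by 3.48 and Ehhadh by 2.55. Slc27a2 had 1126, 1405, 1287 and 1396 CPM in the proximal tubule and 91.6, 130, 104 and 159 CPM in the thick ascending limb, and it still had between 52.5 and 93.7 CPM in endothelium. Acsl1 and Etfb were also among the 10 smallest adjusted p-values in all 6 comparisons, and Acad11 and Hadh in 4 and 3 of them.

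Ppargc1a ran the other way against the thick ascending limb, the distal convoluted and connecting tubule and intercalated nuclei. Against podocytes and endothelium, where its means were 40.3 and 24.6 CPM, it was higher in the proximal tubule. It had 426, 582, 586 and 505 CPM in the proximal tubule, 1043, 1060, 1234 and 1164 in the thick ascending limb and 1160, 1320, 1139 and 1589 in the distal convoluted and connecting tubule, with no overlap. The proximal tubule was lower by a log2 difference of -0.95 (SE 0.14, edgeR adjusted p = 1.93e-06) and of -1.18 (SE 0.13, adjusted p = 1.36e-06), and than intercalated nuclei by -0.60. Cpt1a was likewise lower in the proximal tubule, by -0.85 against the thick ascending limb and -1.05 against the distal convoluted and connecting tubule (edgeR adjusted p = 3.56e-05 and 1.37e-06). Against intercalated nuclei, podocytes and endothelium, where its means were 67.4, 21.0 and 42.3 CPM, Cpt1a was higher in the proximal tubule. Cpt1a had 103, 136, 109 and 115 CPM in the proximal tubule, 243, 208, 237 and 237 in the thick ascending limb and 244, 270, 236 and 293 in the distal convoluted and connecting tubule. Cpt2, in contrast, was higher in the proximal tubule against the thick ascending limb and the distal convoluted and connecting tubule, by 0.88 and 1.34. The first of these calls was kept under 6 of 10 alternatives and was lost with DESeq2 and without the MRL/lpr 6 weeks, C57BL/6 6 weeks or C57BL/6 10 weeks library. Hadha and Hadhb, the 2 subunits of the trifunctional protein, were lower than in the distal convoluted and connecting tubule by -0.47 and -0.75.

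Cd36 was lower in the proximal tubule than in endothelium by a log2 difference of -3.59 (SE 0.23, edgeR adjusted p = 4.84e-48). Endothelium held 78.8, 255, 154 and 220 CPM, and the proximal tubule as a whole 15.8, 13.9, 15.5 and 14.4. S2/S3-like nuclei, at 69.4 to 139 CPM, overlapped the endothelial range. Summed endothelial panel genes were at 188, 87.0, 60.0 and 88.4 CPM in S1-like and 77.2, 110, 69.4 and 62.3 CPM in S2/S3-like nuclei. Whether endothelial RNA or doublets gave part of the Cd36 counts was not tested.

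**Figure D3:**
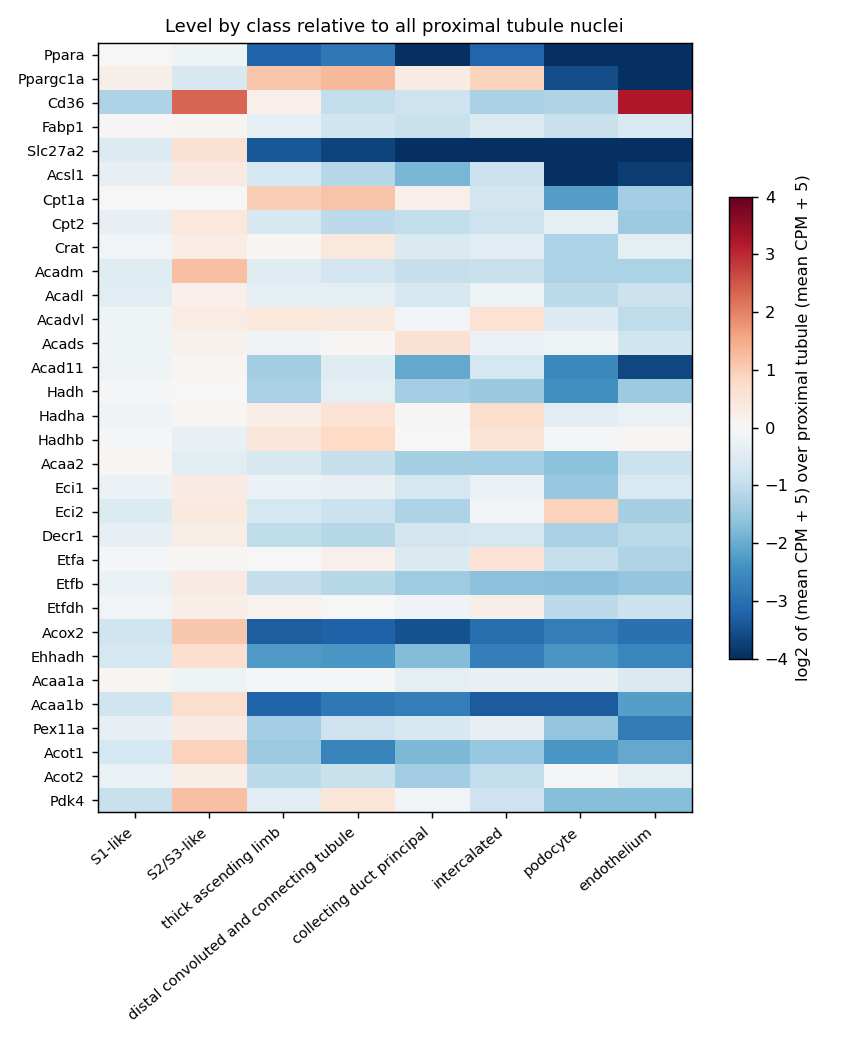
Each cell gives the log2 of mean CPM over the 4 libraries plus 5 in a class (columns) over the same in all proximal tubule nuclei (colour scale, limits -4 and 4) for each of the 32 genes (rows). Ppara, Slc27a2, Acox2, Ehhadh and Acaa1b are blue outside the proximal tubule, Ppargc1a and Cpt1a are red in the thick ascending limb and in the distal convoluted and connecting tubule, and Cd36 is red in S2/S3-like nuclei and endothelium.

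Between the strains, more members were lower than higher in MRL/lpr at both ages in the proximal tubule and in the distal convoluted and connecting tubule. All 5 peroxisomal genes were lower in the proximal tubule, and so were the 4 compared in the distal convoluted and connecting tubule. With 1 library per group there is no replicate check and no test, and ratios are given with 95% intervals that cover counting error only. Summed over the members, the ratio of MRL/lpr over C57BL/6 in the proximal tubule came to 0.802 (0.787 to 0.817) for the 6 week pair and 0.785 (0.771 to 0.8) for the 10 week pair. In S1-like nuclei the ratio was 0.813 and 0.883, in S2/S3-like nuclei 0.891 and 0.75, and in the distal convoluted and connecting tubule 0.847 and 0.774. These ratios too are weighted to the genes with most UMIs, such as Slc27a2 and Ppargc1a. In the thick ascending limb the summed ratio was 0.933 (0.840 to 1.04) and 0.935 (0.847 to 1.03), with intervals that hold 1. The 5 proximal tubule panel genes summed to 11237, 14095, 14410 and 15059 CPM in proximal tubule nuclei and so were also lower in MRL/lpr at 6 weeks. The part this plays in the proximal tubule ratios was not tested.

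In the proximal tubule all 32 genes had at least 50 UMIs and were compared. Of these 20 were lower in MRL/lpr at both ages, 2 higher at both and 10 in opposite directions. Of all 12032 genes compared, 28% were lower at both ages, 33.7% higher and 38.4% in opposite directions. The median log2 ratio was -0.32 at 6 and -0.52 at 10 weeks, against -0.01 and 0.07 for all genes. Intervals lay below 0 for 18 members and above 0 for 4 at 6 weeks, and for 24 and 2 at 10 weeks. Such intervals were not counted over all genes, so these counts cannot be set against a share of all genes. S1-like nuclei had 21 of 29 lower at both ages, 1 higher and 7 opposite (27.7, 32.6 and 39.7% of all genes). S2/S3-like nuclei had 15 of 26 lower, 2 higher and 9 opposite (27.8, 29.6 and 42.6%). No member was at least 2-fold higher at both ages in the proximal tubule, S1-like or S2/S3-like nuclei, where 2.74, 2.04 and 1.86% of all genes were. The distal convoluted and connecting tubule had 16 of 27 lower at both ages and 2 higher (33.8 and 27.9% of all genes). The thick ascending limb had 5 of 15 and 2, near the 30.5 and 26.2% of all genes, and 4 and 4 with TMM factors in place of total counts. Counted by gene, intercalated nuclei went the other way, with 2 of 9 lower and 5 higher (30.2 and 28%) and medians of 0.20 and 0.21. Their summed ratios, given above, were nevertheless below 1 in both pairs, and such sums are weighted to the genes with most UMIs. Median UMIs per proximal tubule nucleus were 792, 857, 746 and 817, the MRL/lpr medians below those of C57BL/6 of the same age.

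All 5 peroxisomal genes were lower in MRL/lpr at both ages in the proximal tubule, in S1-like and in S2/S3-like nuclei. Their median log2 ratio in the proximal tubule was -0.65 at 6 and -1.27 at 10 weeks. In the distal convoluted and connecting tubule the 4 compared were lower at both ages as well, with medians of -0.48 and -0.59. The 1 compared in the thick ascending limb was also lower, at -0.95 and -1.83, and the 1 in endothelium was higher, at 1.17 and 0.80. Acox2 was the only member at least 2-fold lower at both ages in S1-like nuclei, with 20, 93, 23 and 123 UMIs and log2 ratios of -2.34 (-3.11 to -1.63) and -2.52 (-3.23 to -1.87). At least 2-fold lower at both ages was found for 1.32% of all genes there. In S2/S3-like nuclei the Acox2 ratios were -0.46 (-1.34 to 0.40) and -0.35 (-0.91 to 0.21). The strain ratio in S2/S3-like minus that in S1-like nuclei came to 1.87 (0.80 to 2.94) in the younger and 2.17 (1.34 to 3.01) in the older pair of libraries. Of 25 members with both ratios, 3 had such a difference with an interval that left out 0 in the same direction at both ages, against 1.38% of all 4647 genes compared in this way. These were Acox2, Acadm (1.03 and 0.57) and Ppara (-0.40 and -0.41).

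Acaa1b had 350, 481, 368 and 689 CPM in the proximal tubule, with log2 ratios of -0.46 (-0.56 to -0.36) and -0.91 (-1 to -0.82), and was lower in both segments at both ages with intervals below 0. Pex11a was the only member at least 2-fold lower at both ages in S2/S3-like nuclei, at -1.27 (-2.80 to 0.12) and -1.57 (-2.94 to -0.36), but on 7, 15, 8 and 23 UMIs, and with the stricter panel gate or with Scrublet calls kept no member was. At least 2-fold lower at both ages was found for 1.39% of all genes there. In the distal convoluted and connecting tubule Pdk4 was the only such member, with 3, 23, 3 and 26 UMIs. In the proximal tubule as a whole Acox2, Fabp1 and Pdk4 were at least 2-fold lower at both ages (1.65% of all genes). Pdk4 was just past 2-fold at 6 weeks, and the count was 2 with TMM factors, with mitochondrial and ribosomal protein genes left out of the total, with the stricter panel gate and with Scrublet calls kept, and 1 with a minimum of 200 UMIs. Fabp1, the liver-type fatty acid carrier whose promoter match is shown above, had 5, 24, 2 and 31 UMIs, with log2 ratios of -2.70 (-4.44 to -1.28) and -4.20 (-7.31 to -2.23). Pdk4 had 31, 46, 18 and 74 UMIs, with ratios of -1 (-1.71 to -0.31) and -2.29 (-3.12 to -1.53).

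**Figure D4:**
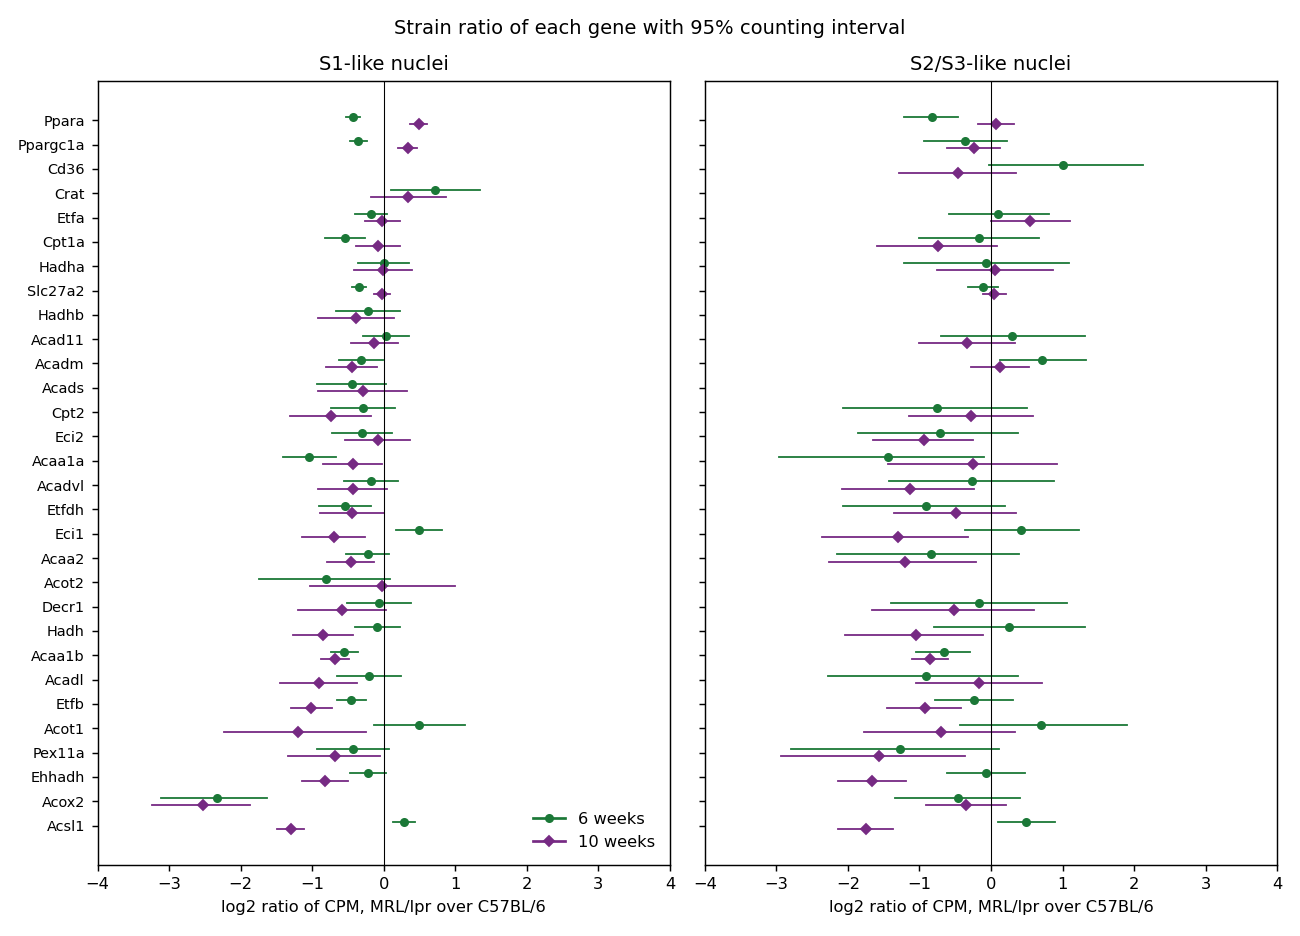
Log2 ratio of CPM in MRL/lpr over C57BL/6 (x axis) at 6 weeks (green circles) and 10 weeks (purple diamonds) for each gene with at least 50 UMIs in the class (y axis), with 95% intervals for counting error. Acox2 lies at -2.34 and -2.52 in S1-like and at -0.46 and -0.35 in S2/S3-like nuclei, and Acsl1 lies above 0 at 6 and below 0 at 10 weeks in both.

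For 5 members the strain ratio in the proximal tubule went opposite ways at the 2 ages with both intervals leaving out 0. The share of all genes under this rule was not taken. At any size 10 of the 32 members went opposite ways, and 38.4% of all genes did. Acsl1 had 493, 409, 228 and 624 CPM, and so was highest in the C57BL/6 and lowest in the MRL/lpr library at 10 weeks. Its log2 ratios were 0.27 (0.18 to 0.37) and -1.45 (-1.56 to -1.34). The same reversal was seen in S1-like nuclei (0.29 and -1.30) and in S2/S3-like nuclei (0.49 and -1.74), and in the thick ascending limb the ratios were 0.24 and -1.03. Acot1 (0.36 and -1.24) and Eci1 (0.58 and -0.56) moved like Acsl1. Ppara went the other way, with 690, 1022, 914 and 730 CPM and ratios of -0.57 (-0.64 to -0.50) and 0.32 (0.25 to 0.40), and Ppargc1a with it, at -0.45 and 0.21. In S1-like nuclei Ppara and Ppargc1a had the same signs, and in S2/S3-like nuclei the Ppara ratios were -0.83 and 0.07, the latter with an interval that holds 0. Core clock genes also differed between these libraries: Arntl had 163, 78.3, 31.0 and 140 CPM and Dbp 11.8, 13.6, 64.8 and 7.63 in the proximal tubule, and the time of day of tissue collection is not given in the sources used here. The MRL/lpr 10 week library had the lowest share of mitochondrial UMIs in the proximal tubule (0.279, 0.216, 0.104 and 0.240%) and of ribosomal protein UMIs (2.31, 1.97, 1.28 and 1.78%). The part of either in these ratios was not tested.

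**Figure D5:**
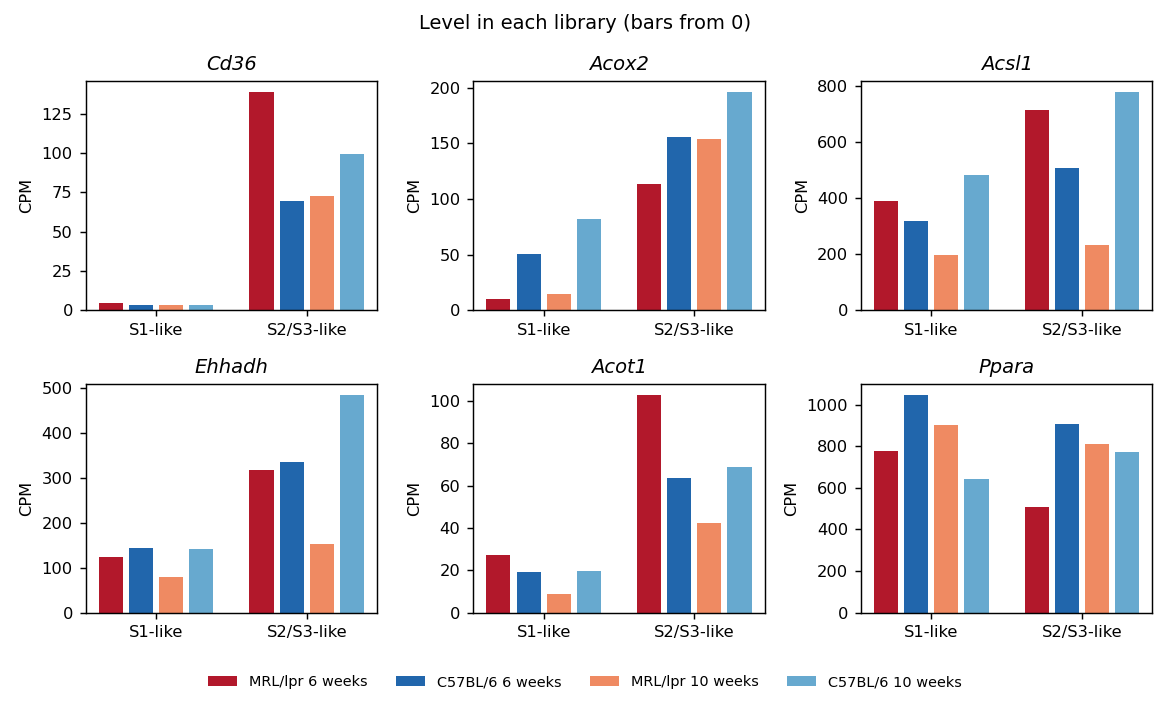
CPM (y axes, from 0, different scales) of 6 genes in S1-like and S2/S3-like nuclei, with 1 bar per library and no error bars because each group is 1 library. Cd36 stands at 69.4 to 139 CPM in S2/S3-like nuclei. Acsl1 and Ehhadh are lowest in the MRL/lpr library at 10 weeks in both segments. Acox2 is lower in MRL/lpr than in C57BL/6 of the same age in both segments, with the wider ratio in S1-like nuclei.

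Of the other members with most UMIs, Slc27a2 had strain ratios of -0.32 (-0.38 to -0.26) and -0.12 (-0.17 to -0.06) in the proximal tubule, and in S2/S3-like nuclei both intervals held 0. Etfb had 216, 283, 126 and 239 CPM and ratios of -0.39 and -0.93. Etfa, the other subunit of the flavoprotein, had 178, 199, 189 and 188 CPM and ratios of -0.16 and 0.01, so the 2 subunits did not follow each other. Ehhadh had 166, 260, 109 and 286 CPM and ratios of -0.65 (-0.78 to -0.51) and -1.39 (-1.55 to -1.23). Crat and Cd36 were the 2 members higher at both ages, at 0.44 and 0.05 and at 0.18 and 0.10, with intervals that leave out 0 only for Crat at 6 weeks.

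In the mitochondrial members the proximal tubule ratios were wider at 10 than at 6 weeks for Acadl (-0.25 and -0.92) and Hadh (-0.06 and -0.79), and Cpt2 was lower both times (-0.54 and -0.43). Cpt1a had ratios of -0.41 (-0.60 to -0.23) and -0.07 (-0.27 to 0.12). Hadha, at 0.06 and -0.08, and Hadhb, at -0.04 and -0.23, had intervals that held 0 each time. Acads had ratios of -0.14 and -0.41, Acadvl of 0.03 and -0.50, Acad11 of 0.10 and -0.25 and Decr1 of 0.01 and -0.66, each with an interval below 0 only at 10 weeks, as Acadm at -0.38. Acaa2, Eci2, Etfdh and Acot2 had ratios between -0.85 and -0.44 and intervals below 0 both times.

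With age, the MRL/lpr proximal tubule had a median log2 ratio of 10 over 6 weeks of -0.23 over the members, and C57BL/6 of 0.01, against 0.02 and -0.06 for all genes. In both strains 10 members were lower and 6 higher at 10 weeks, and 16 went opposite ways (of all genes 29.4% were lower, 23.8% higher and 46.6% opposite). In S1-like nuclei 13 of 29 were lower, 4 higher and 12 opposite (29.2, 24 and 46.7% of all genes), and in S2/S3-like nuclei 6 of 26, 5 and 15 (24.5, 28.6 and 46.9%). No member was at least 2-fold apart in the same direction in both strains in these 3 classes, where between 0.128 and 0.385% of all genes were in either direction. The Acsl1 ratio was -1.11 (-1.22 to -1) in MRL/lpr and by 0.61 (0.51 to 0.71) in C57BL/6, and Eci1 by -1.32 and -0.19. The age and strain ratios share libraries and are not independent of each other.

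Of the 94 other genes of the pathway, 85 were compared in the proximal tubule, 44 had lower and 14 higher levels in MRL/lpr each time, and for 8 the difference was 2-fold or more both times. Among them Angptl4, a secreted inhibitor of lipoprotein lipase, had 66, 362, 13 and 158 UMIs. Cyp4a14, Cyp4a10, Vnn1 (pantetheinase), Lpin1 (a lipid phosphatase and coactivator), Slc27a1 (a fatty acid transporter) and Acox3 (peroxisomal) were also among them. Acacb, which makes the malonyl-CoA that inhibits Cpt1a, was the only one 2-fold or more higher, with 30, 9, 39 and 11 UMIs. By segment, Slc25a20, the carnitine carrier, and Pdk2 were added in S1-like nuclei, and G0s2, an inhibitor of lipolysis, and Pdk2 in S2/S3-like nuclei. Slc27a1 was at least 2-fold lower at both ages in the thick ascending limb and in the distal convoluted and connecting tubule as well, where Slc25a20 and Cyp4a14 joined it.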

How the data were processed

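The deposited matrices hold UMI counts, 1 for each gene in each barcode. Their headers name Cell Ranger 5.0.0, and the submitters' processing notes name 3.1.0. Per the labels' protocols nuclei came from an iodixanol gradient and were primed with poly-dT. The build, and whether introns were counted: not given in the sources used here.

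The members and lists were chosen with earlier results of these data known. Barcodes with under 200 genes or over 10% mitochondrial UMIs and Scrublet calls (scanpy 1.11.5) were left out. In MRL/lpr 6 weeks Scrublet called none, and the highest scores at 0.8% per 1000 barcodes were taken. A class needed 3 UMIs of its panel and 2 times those of any other. UMIs were summed per class and library and tested with edgeR 4.0.16 (TMM, library block, at least 50 UMIs, Benjamini-Hochberg). The segment test recovered 53% of 2-fold and 89% of 4-fold changes in simulated data. These had the same spread for every gene and the same change in all 4 libraries, so recovery in the real data may differ. Strain and age ratios had no test, but a conditional exact binomial 95% interval, with a count of 0 set at 3 UMIs. Named were the 10 members with the smallest adjusted p, all regulators and shuttle genes, members at least 2-fold apart at both ages, the 8 with most UMIs, those with opposite intervals, and other pathway genes by the same fold or the 5 smallest adjusted p. Depth was 5729860 to 6559079 UMIs per library. The values of 1 other pathway gene are not reported here.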

Additional observations from a re-analysis of the deposited data

Results flagged for a closer look

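The values here were picked because 2 groups moved opposite ways with both counting intervals leaving out 0. How many of all genes would be picked in this way was not counted. The difference between libraries itself was not tested, since each group is 1 library. In the proximal tubule the strain log2 ratio at 10 weeks minus that at 6 weeks was 0.89 for Ppara, 0.67 for Ppargc1a, -1.72 for Acsl1, -1.13 for Eci1 and -1.59 for Acot1. In S1-like nuclei it was 0.91 for Ppara, 0.69 for Ppargc1a, -1.59 for Acsl1 and -1.19 for Eci1, and in S2/S3-like nuclei -2.24 for Acsl1. The age log2 ratio in MRL/lpr minus that in C57BL/6 was -0.74 for Ehhadh in the proximal tubule and -1.59 in S2/S3-like nuclei, 0.31 for Slc27a2 in S1-like nuclei, and -1.27 for Acsl1 in the thick ascending limb.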

How the results depend on the processing

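No paired analysis was possible between strains or ages because each group is 1 library; the library block pairs the classes of a library. Without that block (no replicate block) 8 members were higher and 1 lower in S2/S3-like nuclei, against 15 and 2. With at least 2 segment marker UMIs 7 were higher, and without Slc5a10 in the gate 8 were higher and 4 lower. DESeq2 gave 1 lower. With each library left out in turn 12 to 13 were higher and 1 to 2 lower. The gate also turned Pex11a to -0.17 (2 UMIs) and -0.29 (without Slc5a10) and Eci1 to -0.43 (without Slc5a10); the cause was not tested. Against intercalated nuclei 1 member was lower by DESeq2, with no filter and with 0 proximal tubule panel UMIs, 4 with total counts, and 1 with any library left out, against 2. Total counts in place of TMM moved the median log2 difference of all genes from 0.09 to -0.08 against the thick ascending limb, from 0.00 to -0.13 against the distal convoluted and connecting tubule, from 0.23 to -0.11 against principal and from 0.12 to -0.15 against intercalated nuclei. At a minimum of 200 UMIs fewer genes were compared, and the members lower in MRL/lpr at both ages numbered 4 in S2/S3-like nuclei, 0 in the thick ascending limb and 8 in the distal convoluted and connecting tubule, and those lower with age 1 in S2/S3-like nuclei. At 1 UMI the thick ascending limb gave 9. Against podocytes 0 were lower with DESeq2, no filter, no block, 0 proximal tubule panel UMIs and without any library but C57BL/6 10 weeks, against 1. Over the 7 comparisons and their alternatives 140 of 1467 member calls were lost, genes under the minimum of UMIs included. Depth limits the strain ratios: at 6 weeks 21 of 26 intervals held 0 in S2/S3-like nuclei and 14 of 15 in the thick ascending limb.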
